A study of Mus musculus with 2 samples.

Results

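The hedgehog and BMP signals described here are 10 genes of 2 secreted-signal pathways: the hedgehog ligands Shh and Ihh, the hedgehog receptor Ptch1, its partner Smo, the decoy receptor Hhip and the transcription factor Gli1, and, on the BMP side, the ligands Bmp2 and Bmp4, the receptor Bmpr1a and the target gene Id1. They were chosen by name, with earlier results of these data known. Each symbol matched 1 of the 38087 Ensembl genes in the deposited values. The cells, acid-secreting parietal cells, had been sorted from stomachs of C57BL/6 mice. One library came from mice fed a high fat diet (HFD) and 1 from control mice. The labels name no transgene, allele or drug in either group, and the sources used here do not give the age of the mice, the length of the diet, the number of animals in a library or the sorting markers. Each diet has 1 library, so the diets could not be compared by a test, and every difference is between these 2 libraries.

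Hedgehog ligands are lipid-bearing secreted proteins that bind Ptch1, which releases Smo from inhibition and lets Gli factors switch on genes that include Gli1, Ptch1 and Hhip themselves. In the adult stomach Shh is known as a product of parietal cells and Ihh as a product of the surface mucous (pit) cells, while much of the response lies in the mesenchyme under the epithelium. BMP ligands bring type II receptors together with type I receptors such as Bmpr1a, and the type I receptors phosphorylate Smad1, Smad5 and Smad9. These join Smad4 and act on genes such as Id1, which encodes an inhibitor of helix-loop-helix transcription factors.

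Levels are RPKM, reads per kilobase of gene at a common library depth, and a gene at or below 1 RPKM is listed as 0. Depth, read from the steps between low values, was about 25.5 M reads with HFD and 9.84 M in the control library. Intervals are 95% counting intervals from estimated reads, so they cover counting error only and leave out variation between mice. Atp4a and Atp4b, the proton pump subunits that define parietal cells, were abundant, at 4997 and 5639 RPKM with HFD against 4324 and 4375 RPKM in the control, and 14 of 14 parietal markers were listed in both. Markers of other gastric cells were present too: 7 chief cell genes summed to 48583 RPKM with HFD and 106844 in the control, and 7 pit cell genes to 37091 and 15132 RPKM. A value below therefore belongs to the sorted mixture, and in it fewer cells of a type cannot be told apart from less RNA per cell.

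All 10 genes were listed in the control library, but only 8 with HFD, where Hhip and Gli1 were listed at 0. Shh was the one gene of the set over 2-fold higher in the HFD library, and Id1, Gli1 and Hhip were over 2-fold lower on the log2(RPKM + 1) scale. On that scale 12.5% of the 16037 genes above the floor in at least 1 library passed 2-fold upward and 23.9% passed it downward. At any size 3 of the 10 were higher, against 44.0% of all listed genes, and 2 of the 10 were listed in the control library only, against 16.2%. For the 8 genes listed in both libraries the whole counting interval of the ratio lay above 1 for Shh, Bmp2 and Bmpr1a, against 37.9% of all genes so compared, and below 1 for Ihh, Smo, Ptch1 and Id1, against 40.4%. Setting the totals without the 20 most abundant genes equal lowers every HFD value above 0 by 0.61 in log2 RPKM. A gene with a ratio between 1 and 1.52 as deposited turns lower under it, Bmp2 and Bmpr1a included. Shh stays higher, at 0.77 on the log2(RPKM + 1) scale, and no longer passes 2-fold on that scale. The pseudocount shrinks the difference of Shh there, and its ratio of 3.05 as deposited is divided by 1.52. Of the 10 genes 0 were then over 2-fold higher and 5 over 2-fold lower on the log2(RPKM + 1) scale. The counts are small and lie near the shares of all genes, so it is the single genes that carry the description.

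**Figure D1:**
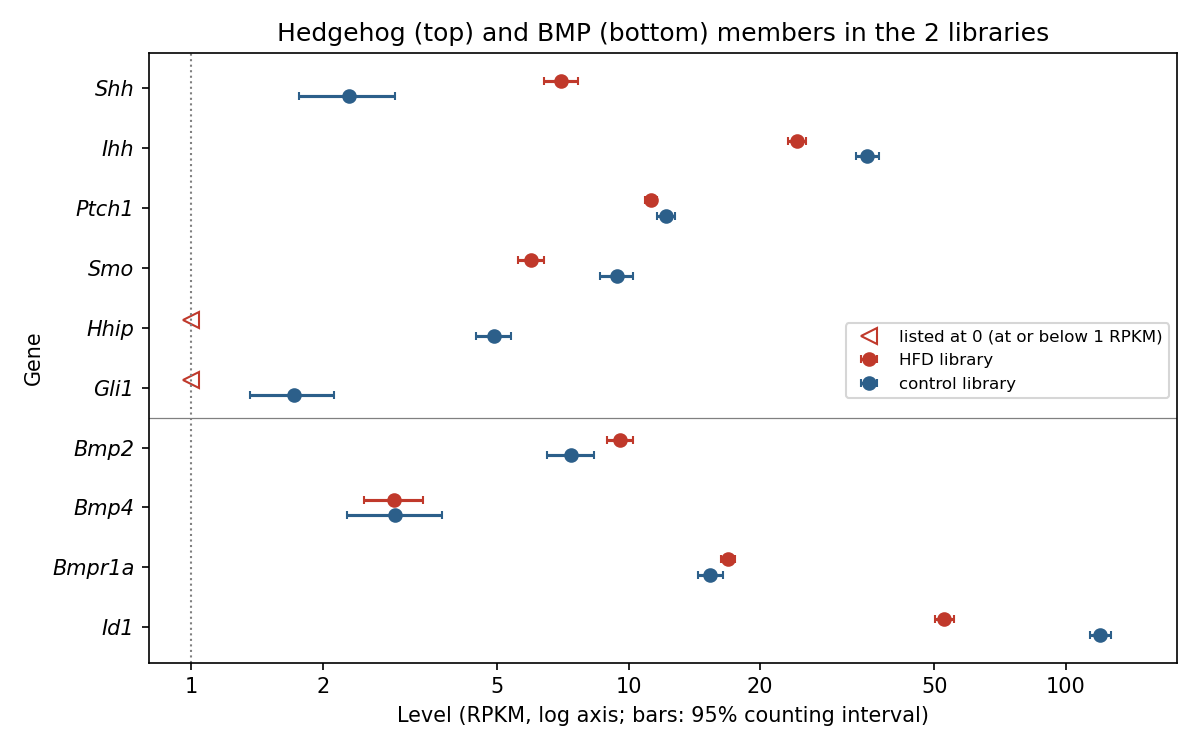
Level of each of the 10 genes in RPKM on a log axis, in the HFD library (red) and the control library (blue), with 95% counting intervals as bars; open triangles mark genes listed at 0, which means at or below 1 RPKM. Shh lies to the right in the HFD library, Ihh, Smo and Id1 lie to the left, and Hhip and Gli1 are at the floor.

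The hedgehog ligands went in opposite directions. Shh (ENSMUSG00000002633, chromosome 5, 28456815 to 28467256, mm10), the ligand known from parietal cells, stood at 7.01 RPKM with HFD and 2.30 RPKM in the control, a ratio of 3.05 (interval 2.36 to 4.04). The control value rested on about 64.3 estimated reads and the HFD value on about 509, and the intervals of the levels, 6.41 to 7.65 and 1.76 to 2.92 RPKM, did not overlap. Of 865 protein-coding genes listed in both libraries with a control level from 1.84 to 2.87 RPKM, 43 (4.97%) had a ratio at least as high as that of Shh. Exons of Shh share 361 bases with the opposite-strand noncoding gene Gm26894, listed at 4.27 and 3.61 RPKM, and 446 bases with 9530036O11Rik, listed at 0 in both. The sources used here do not say whether reads were counted by strand, so reads of Shh and Gm26894 over the shared bases cannot be told apart.

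Ihh (ENSMUSG00000006538, chromosome 1, 74945315 to 74951672), the second ligand, was the most abundant hedgehog gene of the set in both libraries. It stood at 24.3 RPKM with HFD and 35.1 RPKM in the control, 1.45 times lower with HFD (interval 1.34 to 1.56). Ihh was therefore 3.46 times as abundant as Shh in the HFD library and 15.3 times as abundant in the control library. The Shh to Ihh ratio was 4.42 times higher with HFD (interval 3.38 to 5.92), a comparison within each library that no rescaling can alter. This pair of genes was compared after their values were seen. The remaining ligand, Dhh, was listed at 0 in both libraries.

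Markers of the cells known to make these ligands differed between the libraries as well. Of 14 parietal markers, with a sum of 13344 against 10441 RPKM, 13 were higher with HFD, where 44.0% of all listed genes were higher. The median log2(RPKM + 1) difference of the 14 was 0.53, and -0.07 with the totals rescaled. Shh differed by 1.28 on the same scale, and by 0.77 with the totals rescaled. As deposited the parietal markers ranged from -0.14 to 1.35, and 3 of them were over 2-fold higher. Of 7 pit cell markers 5 were higher, led by Gkn1 at 21736 against 5021 RPKM, while Tff1, at 2960 against 3003 RPKM, and Sult1c2, at 147 against 199.96 RPKM, were not. As deposited Ihh, at -0.52, lay on the other side of 0 from the pit cell median of 0.39. With the totals rescaled they were -1.09 and -0.22, on the same side of 0. The part of cell makeup in either ligand's difference was not tested.

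Release of the ligands is served by Disp1, a transporter that frees lipid-bearing hedgehog proteins, and by the Scube carrier proteins. Disp1 stood at 1.70 RPKM with HFD against 3.55 RPKM in the control, 2.08 times lower (interval 1.70 to 2.54). Disp2 and Scube1 were listed at 0 with HFD, against 2.73 and 1.73 RPKM. Hhat, which attaches the palmitate of hedgehog proteins, was listed at 0 in both libraries, as were Scube2 and Scube3. Of the 9 genes for ligands and their release, 5 were listed in either library. Shh was the single one of these 5 that was higher, against 44.0% of all listed genes.

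Hedgehog receptors ranged from near equal levels to a listing at 0. Ptch1 (ENSMUSG00000021466, chromosome 13, 63508328 to 63573598), the receptor that holds Smo inactive, stood at 11.2 RPKM with HFD and 12.2 RPKM in the control, a ratio of 0.923 (interval 0.872 to 0.978). Smo (ENSMUSG00000001761, chromosome 6, 29735503 to 29761365), the signal transducer, stood at 5.99 and 9.39 RPKM, 1.57 times lower with HFD (interval 1.40 to 1.75). Ptch1 exceeded Smo 1.88 times with HFD and 1.30 times in the control library. Cdon, a co-receptor that helps Ptch1 bind ligand, had a ratio of 1.15 (interval 1.00 to 1.33), at 4.12 against 3.57 RPKM. Its fellow co-receptor Boc was listed at 0 with HFD against 1.63 RPKM, and Gas1 and Lrp2 were listed at 0 in both.

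Hhip (ENSMUSG00000064325, chromosome 8, 79965851 to 80058006), a membrane protein that binds and sequesters the ligands, was listed at 0 with HFD and stood at 4.92 RPKM in the control library (interval 4.47 to 5.40). The control value rested on about 439 estimated reads, and the floor of 1 RPKM in the HFD library equals about 231.5 reads of this gene, so the HFD library may hold reads below it. Among 1689 protein-coding genes with a control level from 3.93 to 6.15 RPKM, 131 (7.76%) were listed at 0 in the HFD library. Gli1 (ENSMUSG00000025407, chromosome 10, 127329882 to 127341974), the Gli factor that is itself induced by the pathway, was listed at 0 with HFD and at 1.72 RPKM in the control library (interval 1.36 to 2.12). For genes of that level a listing at 0 was common: 440 of 1055 protein-coding genes (41.7%) with a control level from 1.37 to 2.15 RPKM were listed at 0 in the HFD library. The level of Gli1 lies nearer the floor than that of Hhip, so the larger share there follows from the floor itself. Shares of genes of like level were computed only for Hhip, Gli1, Shh and Id1, the genes of the set over 2-fold apart. Gli1 exons share 62 bases with the opposite-strand gene Arhgap9, listed at 0 in both libraries.

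Hhip and Ptch1 are both known targets of Gli factors, yet the first was listed at 0 with HFD and the second was near equal as deposited (-0.11 on the log2(RPKM + 1) scale, and -0.65 with the totals rescaled), and their promoters are shown for that reason. The 250 bases before the RefSeq start (GRCm38.p6, the assembly of mm10) are printed on the gene's strand for Hhip, chr8:80058009-80058258 (minus), and Ptch1, chr13:63565736-63565985 (minus). Capitals mark matches on either strand to the motifs searched, which were the Gli motif GACCACCCA, its inner letters CCACCC, the SMAD motif GGCGCC and the SMAD motif CAGAC.
Hhip: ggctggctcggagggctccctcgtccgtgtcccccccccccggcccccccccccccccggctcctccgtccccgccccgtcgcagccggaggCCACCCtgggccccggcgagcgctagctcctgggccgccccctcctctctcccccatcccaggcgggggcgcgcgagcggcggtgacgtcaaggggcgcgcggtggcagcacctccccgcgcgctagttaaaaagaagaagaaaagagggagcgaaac
Ptch1: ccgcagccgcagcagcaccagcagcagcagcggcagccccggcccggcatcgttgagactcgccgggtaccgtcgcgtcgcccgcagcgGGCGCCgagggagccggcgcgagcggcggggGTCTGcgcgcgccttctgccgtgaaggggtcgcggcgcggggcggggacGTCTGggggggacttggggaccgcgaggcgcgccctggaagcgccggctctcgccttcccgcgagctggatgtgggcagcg
The Hhip window held 1 match to CCACCC and none to the other motifs. The Ptch1 window held 1 match to GGCGCC and 2 to CAGAC, written there as its reverse complement GTCTG, and neither window held the full GACCACCCA. CCACCC was also matched 2 times in the Ihh window and 1 time in the Smo window, but not in those of Bmp4 and Bmpr1a. The Ptch1 window lies inside the gene span given above, which ends at 63573598, so transcripts starting further upstream are not covered. Whether these motifs bear on the difference between Hhip and Ptch1 was not tested. Among 32851 promoter windows of the same length in the RefSeq table, 0.225% held GACCACCCA, 28.1% CCACCC, 9.59% GGCGCC and 42.2% CAGAC. Both windows were rich in G and C, at 76.0% for Hhip and 78.4% for Ptch1 against a median of 52.4% over all windows.

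Other hedgehog target genes were mostly below the floor in the HFD library. Of 14 targets, Ptch1, Hhip and Gli1 included, 11 were listed in either library and 7 of the 11 in the control library only, against 16.2% of all listed genes and 41.7% of protein-coding genes near the level of Gli1, and the median log2(RPKM + 1) difference was -1.44. This median depends on how a 0 is entered, and over the 3 genes listed in both libraries the log2 ratio had a median of -0.17. Foxf1 and Foxf2, forkhead factors of gut mesenchyme, were listed at 0 with HFD against 3.07 and 2.68 RPKM. Foxm1, a factor of dividing cells, was likewise listed at 0 against 8.503 RPKM, and Bcl2 and Snai1 against 2.37 and 1.12 RPKM. The cyclin genes Ccnd1 and Ccnd2 were listed in both, at 22.2 against 36.7 RPKM and 25.1 against 28.3 RPKM. Mycn was the single target that was higher, at 1.37 RPKM against a listing at 0, as was the case for 6.19% of all listed genes.

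The cytoplasmic steps of the pathway had a small median difference, with larger differences for single genes. Of 18 transducers 12 were listed, 6 higher and 6 lower, where 44.0% of all listed genes were higher. With the totals rescaled 0 were higher, against 22.5% of all listed genes. As deposited the 12 had a median of -0.02, beside a median of -0.13 over all listed genes. Of the 12, 3 were listed in the control library only, against 16.2% of all listed genes. These were Gli1, Arl13b at 2.14 RPKM and Evc2 at 2.20 RPKM. Prkaca, the protein kinase A subunit that primes Gli factors for processing, stood at 23.3 and 23.2 RPKM, and Gsk3b at 8.80 and 8.47 RPKM. Csnk1a1, a casein kinase of the same step, was the highest by ratio at 1.31 (interval 1.24 to 1.38). Sufu, which holds Gli proteins in the cytoplasm, was the lowest at 1.07 against 2.59 RPKM, 2.41 times lower with HFD (interval 1.98 to 2.95), and Spop, an adaptor for Gli degradation, was 1.45 times lower. Gli2, Gli3 and Kif7 were listed at 0 in both libraries, so of the 3 Gli factors only Gli1 passed the floor, and only in the control library.

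**Figure D2:**
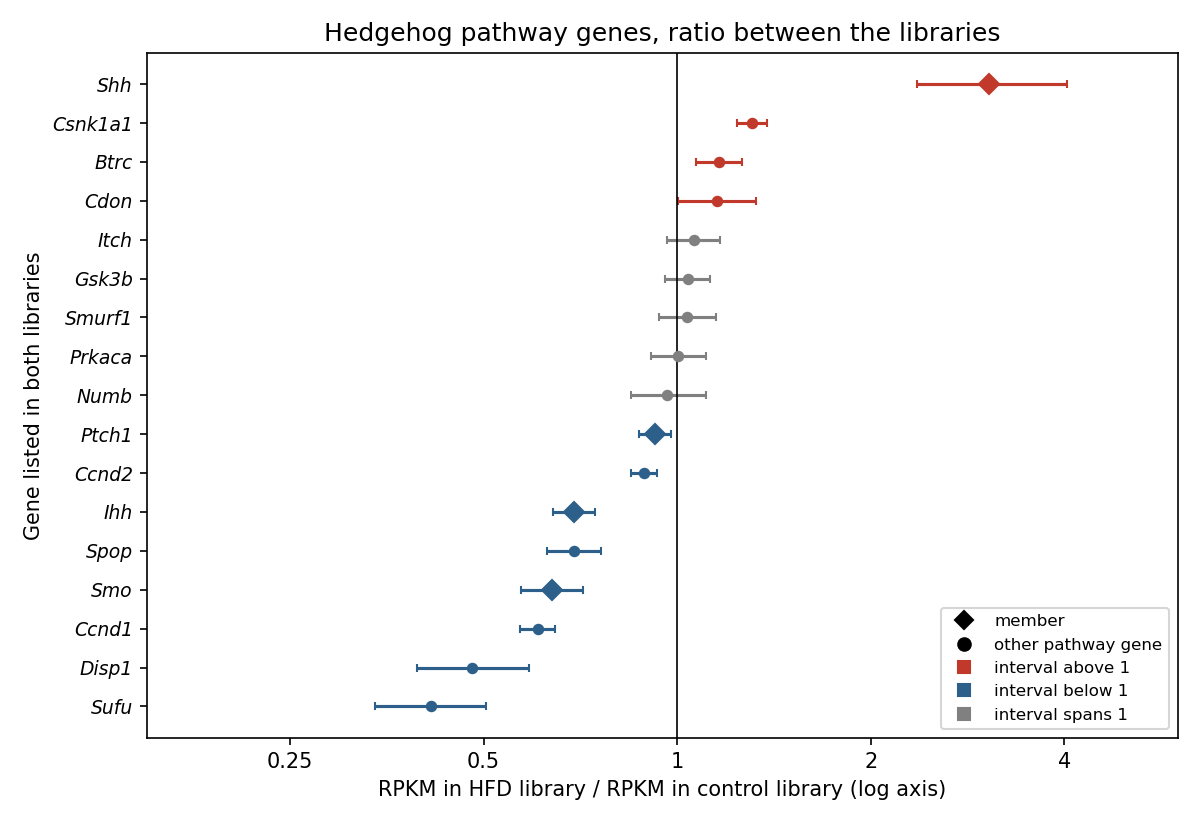
Ratio of RPKM in the HFD library to RPKM in the control library, on a log axis with 95% counting intervals, for the 17 hedgehog pathway genes listed in both libraries; diamonds are genes of the set of 10 and colours show the side of 1 on which the interval lies. Shh is highest at 3.05, Prkaca and Gsk3b lie near 1, and Sufu and Disp1 are lowest.

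Across all 45 hedgehog pathway genes 30 were listed, 9 of them higher (44.0% of all listed genes) and 21 lower with HFD, and 12 were listed in the control library only (16.2% of all). Markers of mesenchymal cells, where much of the hedgehog response is known to lie, were mostly lower too. Of 14 fibroblast markers 13 were lower with HFD, summing to 88.4 against 233 RPKM. Of all 16037 listed genes 8985 were lower. Pdgfra, Pdgfrb and Lum were listed at 0 with HFD, while Thy1 was higher, at 2.42 RPKM against a listing at 0. All 10 smooth muscle markers were lower, with a sum of 41.7 against 238 RPKM, among them Acta2, the most abundant, at 12.8 against 96.1 RPKM. The part of these cells in the hedgehog differences was not tested.

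**Figure D3:**
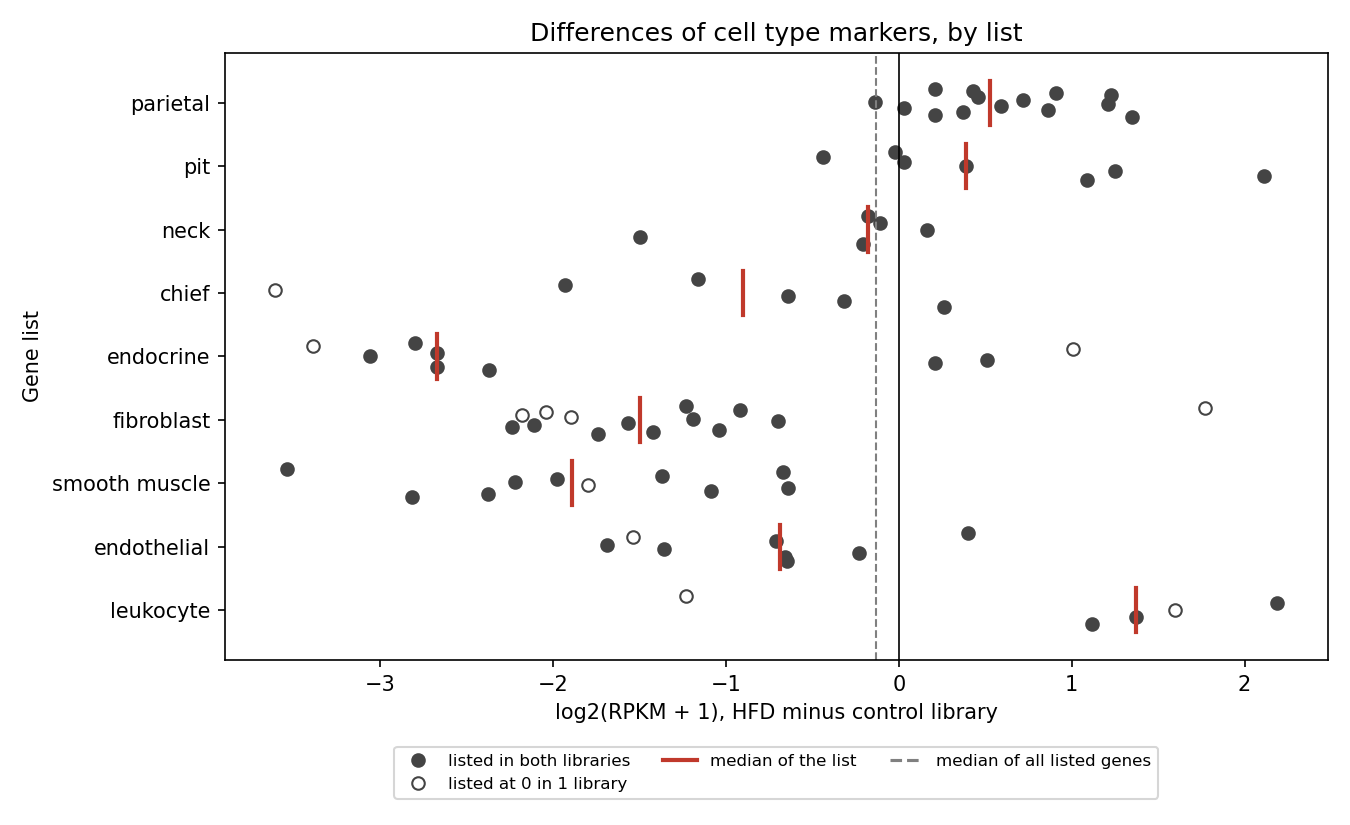
Difference in log2(RPKM + 1), HFD minus control library, for the markers of 9 cell types; filled points are genes listed in both libraries, open points are listed at 0 in 1 library, red bars are list medians and the dashed line is the median of all listed genes. Fibroblast, smooth muscle and endocrine markers lie mostly to the left, parietal markers mostly to the right as deposited, though their median is -0.07 with the totals rescaled. Leukocyte markers lie mostly to the right, with 4 of the 5 listed higher (44.0% of all listed genes), a median of 1.37 and a sum of 32.3 against 9.56 RPKM.

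BMP ligands were of low to middle level in both libraries. Bmp2 (ENSMUSG00000027358, chromosome 2, 133552159 to 133562885) stood at 9.56 RPKM with HFD and 7.37 RPKM in the control, a ratio of 1.30 (interval 1.13 to 1.496). Bmp4 (ENSMUSG00000021835, chromosome 14, 46383520 to 46390669), a ligand typical of gut mesenchyme, stood at 2.91 and 2.92 RPKM, a ratio of 0.997 with an interval of 0.740 to 1.34. The Bmp2 to Bmp4 ratio was 3.29 with HFD and 2.52 in the control library, and the interval of their quotient, 0.935 to 1.82, held 1. Bmp7, an epithelial BMP, had the highest ratio of the ligands at 1.57 (interval 1.34 to 1.85), at 7.35 against 4.69 RPKM. Bmp5 and Bmp6 were listed at 0 with HFD against 2.43 and 2.19 RPKM, and the other 7 ligands of the list were listed at 0 in both.

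Of the 11 listed genes of BMP reception 7 were higher with HFD as deposited, against 44.0% of all listed genes, and 3 with the totals rescaled, against 22.5%. Bmpr1a (ENSMUSG00000021796, chromosome 14, 34410734 to 34503341), the type I receptor, stood at 16.9 RPKM with HFD and 15.4 RPKM in the control, a ratio of 1.10 (interval 1.02 to 1.18). Its exons share 290 bases with the opposite-strand gene Gm17110, listed at 1.86 and 1.68 RPKM. The alternative type I receptor Bmpr1b stood at 6.82 against 3.92 RPKM, a ratio of 1.74 (interval 1.51 to 2.02). Type II receptors split. Bmpr2 had a ratio of 1.24 and Acvr2a of 1.77 (interval 1.55 to 2.02), whereas Acvr2b was listed at 0 with HFD against 4.55 RPKM. The co-receptor Rgmb, a membrane-anchored BMP binder, had the highest ratio at 2.27 (interval 2.11 to 2.44), at 26.3 against 11.6 RPKM. Its partner Neo1 was the most abundant gene of the list, at 29.0 against 23.03 RPKM.

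The receptors known from blood vessels went the other way. Eng (endoglin) stood at 3.84 RPKM with HFD against 8.97 RPKM in the control, 2.34 times lower (interval 2.02 to 2.70), and Acvrl1 was listed at 0 against 2.54 RPKM. Of 10 endothelial markers 8 were listed, 7 of them lower, with a sum of 37.5 against 66.9 RPKM. Of all 16037 listed genes 8985 were lower. Tie1 was higher, at 3.89 against 2.70 RPKM, and the interval of the ratio of Esam, 0.667 to 1.01, held 1. Vwf and Emcn were listed at 0 in both libraries and Tek at 0 in the HFD library. The part of endothelial cells in these receptor values was not tested. The median over the 11 listed genes of the 12 was 0.15, and it was -0.29 with the totals rescaled.

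BMP antagonists were mostly below the floor. Nog, Chrd, Grem1, Fst and 5 others of the 13 were listed at 0 in both libraries. Of all 38087 genes 16037 were listed in at least 1 library. Twsg1, which binds BMPs together with chordin, was the most abundant at 22.2 and 22.1 RPKM. Sostdc1 stood at 2.89 and 3.06 RPKM, with an interval of the ratio of 0.677 to 1.31, and Nbl1 was 1.63 times lower with HFD. Fstl1, a secreted glycoprotein of mesenchymal cells that binds BMPs, was listed at 0 with HFD against 9.91 RPKM in the control.

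All 13 SMAD genes and regulators were listed in both libraries, and their median was -0.01. Smad1, one of the BMP-activated SMADs, had the lowest ratio, at 2.59 RPKM with HFD against 10.5 RPKM in the control, 4.07 times lower (interval 3.60 to 4.62). The SMADs that share its role were higher as deposited, though not with the totals rescaled: Smad5 at 6.06 against 5.38 RPKM, with an interval of 1.00 to 1.27, and Smad9 at 4.48 against 2.98 RPKM (interval 1.26 to 1.81). The Smad1 to Smad5 ratio was 0.427 with HFD and 1.96 in the control library, a pair compared after the values were seen. Smad4, the common partner, had a ratio of 1.39 and Smad3, of the TGF-beta branch, of 1.43. The inhibitory SMADs, both induced by BMP signalling, differed from each other, with Smad6 2.06 times lower (5.59 against 11.5 RPKM) and Smad7 at 13.2 against 14.5 RPKM, a ratio whose interval, 0.832 to 1.00, reached 1. The corepressor Ski stood at 14.9 against 19.0 RPKM and Tob1, a SMAD-binding antiproliferative protein, at 60.0 against 52.1 RPKM.

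Id1 (ENSMUSG00000042745, chromosome 2, 152736251 to 152737410), the target gene of the set, was the most abundant of the 10 in both libraries. It stood at 52.7 RPKM with HFD and 119.9 RPKM in the control, 2.27 times lower with HFD (interval 2.11 to 2.45), and the intervals of the levels, 50.1 to 55.4 and 114 to 126 RPKM, lay far apart. Of 102 protein-coding genes listed in both libraries with a control level from 95.9 to 150 RPKM, 14 (13.7%) had a ratio as low or lower. The other Id genes, which encode inhibitors of the same kind, did not share the size of this difference. Id2 stood at 58.5 against 53.2 RPKM (ratio 1.10, interval 1.03 to 1.17), Id3 at 39.9 against 48.1 RPKM (1.21 times lower) and Id4 at 2.32 against 3.56 RPKM (1.54 times lower). Id1 was thus 0.902 times as abundant as Id2 with HFD and 2.253 times in the control library, so that the order of these genes was exchanged. The Id1 to Id3 ratio was 1.32 and 2.49.

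Other BMP targets went in both directions. Atoh8 stood at 1.43 against 2.93 RPKM. Hamp, which encodes the iron hormone hepcidin, was 2.47 times higher with HFD (20.02 against 8.10 RPKM, interval 1.69 to 3.64). Its control value rested on about 32.7 estimated reads, and Hamp has a close copy in the mouse genome, so it is uncertain. Runx2 was listed at 1.00 RPKM in the HFD library, just above the floor, and at 0 in the control library. Of the 15 BMP targets 10 were listed, 4 higher (44.0% of all listed genes) and 6 lower, with a median of -0.19.

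**Figure D4:**
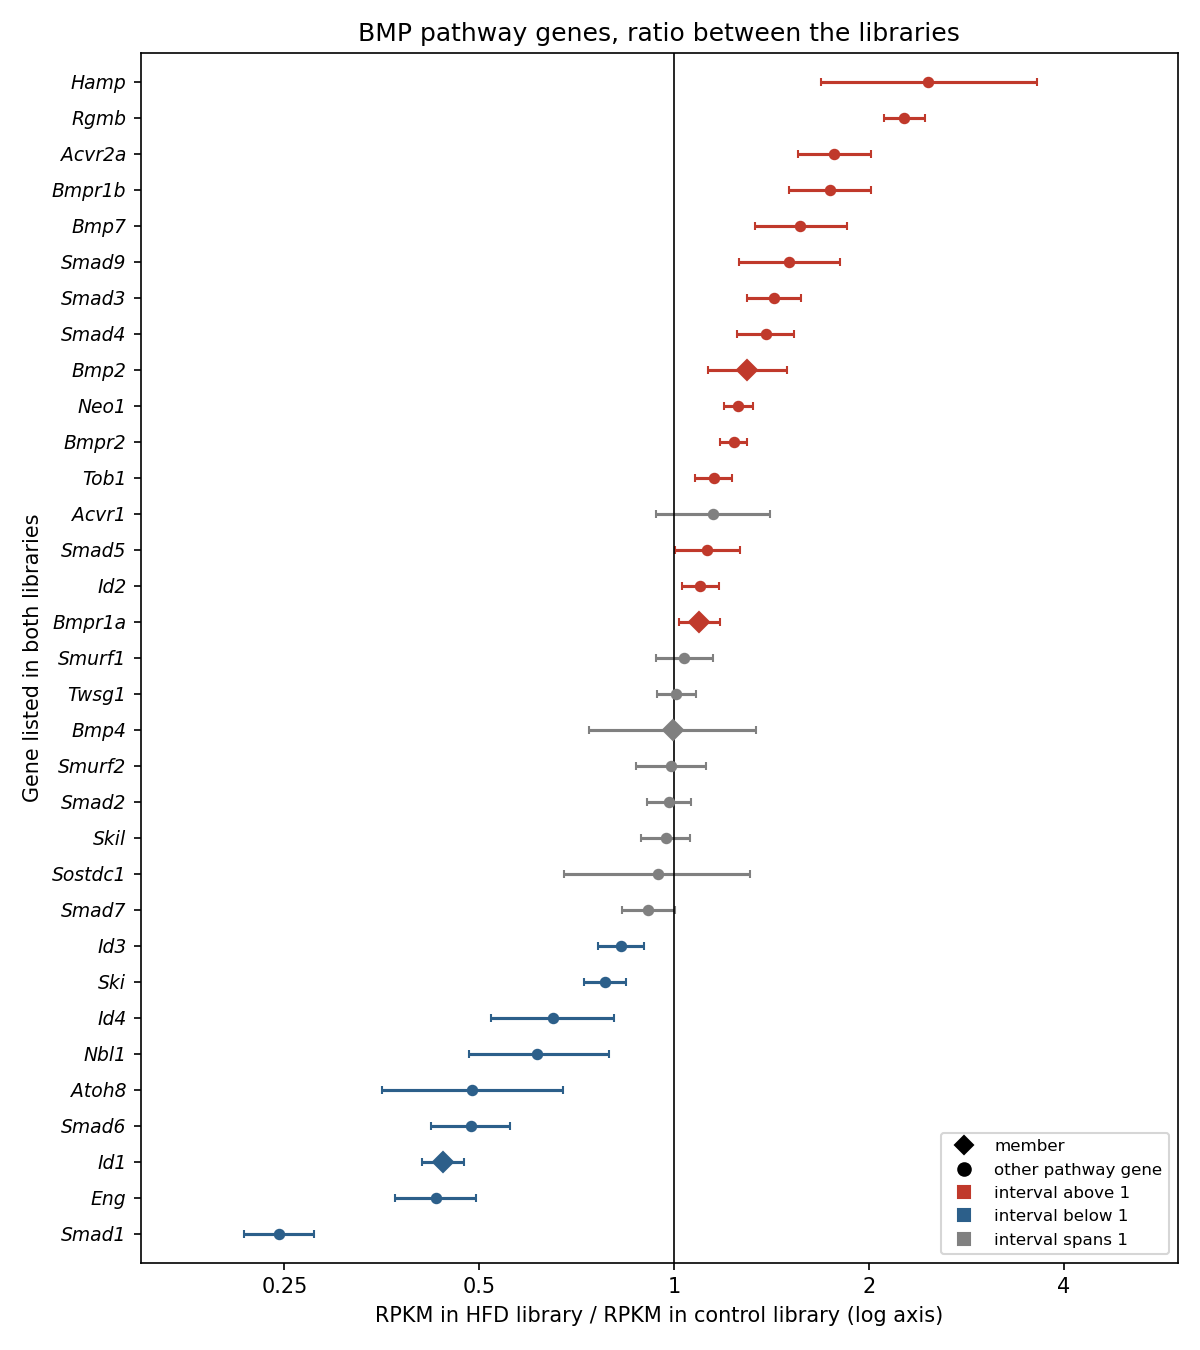
Ratio of RPKM in the HFD library to RPKM in the control library, on a log axis with 95% counting intervals, for the 33 BMP pathway genes listed in both libraries; diamonds are genes of the set of 10. As deposited Hamp and Rgmb are highest, Smad1, Eng and Id1 lowest, and Bmp4 lies at 0.997.

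Over all 61 BMP pathway genes 40 were listed, 19 higher and 21 lower, with a median of -0.01, and 6 were listed in the control library only. Of all listed genes 44.0% were higher and 16.2% were listed in the control library only, so these counts lie near those shares. For the 45 hedgehog genes the median was -0.63, and for all listed genes -0.13. With only genes listed in both libraries the median log2 ratios were -0.05 for hedgehog genes, 0.05 for BMP genes and -0.02 for all genes. That filter leaves out, by construction, the 12 hedgehog and 6 BMP genes listed in the control library only. The measure also changes, from log2(RPKM + 1) differences to log2 ratios. The closer medians therefore say nothing of the genes left out.

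**Figure D5:**
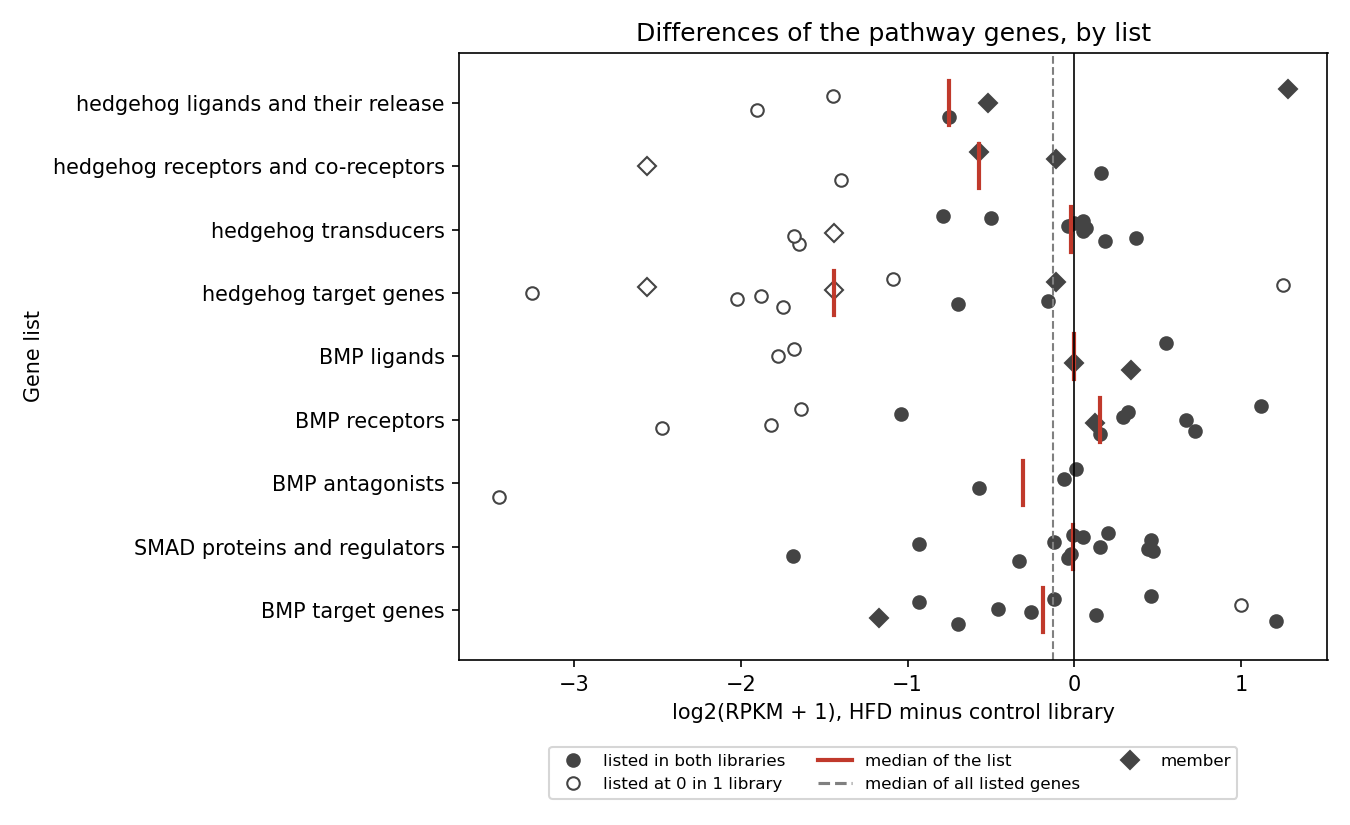
Difference in log2(RPKM + 1), HFD minus control library, for the listed genes of 4 hedgehog and 5 BMP lists; diamonds are genes of the set of 10, open symbols are genes listed at 0 in 1 library, red bars are list medians and the dashed line is the median of all listed genes. Open symbols gather on the left, above all among hedgehog target genes, whose median is -1.44.

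The order of the levels began with the same 4 genes in both libraries. In the HFD library the order from the highest level was Id1, Ihh, Bmpr1a, Ptch1, Bmp2, Shh, Smo and Bmp4, and no interval overlapped that of the next gene. In the control library it was Id1, Ihh, Bmpr1a, Ptch1, Smo, Bmp2, Hhip, Bmp4, Shh and Gli1, where the intervals of Bmp4 and Shh, and of Shh and Gli1, overlapped. Shh lay above 16.0% of the listed protein-coding genes in the control and above 48.5% with HFD. Id1 lay above 98.4% and 94.7%, Ihh above 90.9% and 84.7%, and Bmpr1a above 76.0% and 77.1%.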

How the data were processed

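RNA of 2 libraries of sorted mouse parietal cells, 1 from HFD-fed and 1 from control mice, was compared. Per the labels' protocols, ribosomal RNA was removed and libraries were made with an Ion Total RNA-Seq kit. Of the tools, bedtools 2.25.0 is named in the submitters' processing notes, with the build mm10. The sources used here do not give the aligner, the annotation or the counting rule. The authors deposited 1 column headed RPKM per library, which was read as log2 of RPKM, since the largest value was 18.22, no listed gene lay below 1.0006 RPKM, and part of the low values of single-exon genes fell on multiples of a fixed step (49.7% of 189 values whole within 0.005 of a step in the HFD library and 36.2% of 724 in the control library, at 12 steps or fewer). That step gave the depths of 25.5 and 9.84 M reads, a ratio of 2.59.

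Symbols, positions and exon lengths came from GENCODE M21 on GRCm38, where 36308 of 38087 identifiers matched. Hjv, Dpcr1 and Cblif were matched through RefSeq synonyms. Reads were estimated from RPKM, exon length and depth, and ratios have exact conditional binomial 95% intervals. These are approximate, since the annotation may differ from the authors', and reads carry no molecular identifiers, so they need not be separate molecules. The log2(RPKM + 1) difference, with a pseudocount of 1 RPKM, understates the change of low genes, and any gene at 0 in 1 library is past 2-fold on it by construction. No p-value was computed, because each diet has 1 library. The 10 genes were named in full. Of each pathway list up to 4 genes by mean level and those of lowest and highest ratio (50 reads or more) were named with values, other listed genes could be named, and up to 3 genes of each marker list. Sult1c2, Pdgfra, Pdgfrb, Lum, Thy1, Vwf, Emcn, Tek and Tie1 were named after their values were seen. Likeness to other genes was not ranked, since 2 libraries give 1 ratio per gene. The members and the lists were chosen with earlier results of these data known. A few genes are not reported here. The calculations were tested on simulated data, where the intervals were computed from the simulated reads and depths. Estimating reads when the authors' annotation and counting rule are unknown was not tested. Python 3.11.15, numpy 2.4.6, scipy 1.17.1 and pandas 2.3.3 were used. Promoter sequences came from a RefSeq table (GRCm38.p6), which held 6 of the 10 genes.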

Additional observations from a re-analysis of the deposited data

How the results depend on the processing

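Setting the totals without the 20 most abundant genes equal shifted the HFD values by -0.61 and moved the median of all listed genes from -0.13 to -0.63 on the log2 scale, so that 1102 genes in place of 2000 passed 2-fold upward and 5645 in place of 3833 downward. Under it Bmp2 and Bmpr1a turned lower, at -0.20 and -0.44, while Shh stayed higher at 0.77 and Id1 lower at -1.76. Of the 10 genes 1 was then higher, 5 were over 2-fold lower and 0 over 2-fold higher on the log2(RPKM + 1) scale. Of the 30 listed hedgehog pathway genes 2 were then higher and 0 over 2-fold higher. Of the 40 listed BMP pathway genes 6 were higher, 34 lower and 0 over 2-fold higher. Under this rescaling 22.5% of all listed genes were higher, 6.87% over 2-fold higher and 35.2% over 2-fold lower. The other 2 rescalings, by 0.04 or less, changed no direction among the 9 genes of the set other than Bmp4, which moved between 0.03 and -0.01. With genes listed in both libraries only, 8 of the 10 genes, 17 hedgehog and 33 BMP genes remained, because genes listed at 0 were left out. Of these, 1 of the set, 0 hedgehog and 3 BMP genes were over 2-fold lower, and 9 hedgehog genes were lower with 1 over 2-fold higher. At a minimum of 5 RPKM in either library, 4 of the 10 genes were lower and 1 over 2-fold lower, 8 hedgehog genes were lower with 1 over 2-fold lower and 1 over 2-fold higher, and 12 BMP genes were lower with 4 over 2-fold lower. No share over all genes is given for either filter, so these counts stand without a background. Entered as 1 RPKM with no pseudocount, genes listed at 0 left 1 hedgehog gene over 2-fold higher, and Hhip and Gli1 stood at -2.30 and -0.78. With a pseudocount of 0.1 RPKM they stood at -5.65 and -4.18. Reads estimated from the longest transcript left the interval of each of the 8 ratios on the same side of 1. Leaving out a replicate was not possible with 1 library per diet. No paired analysis was possible because each diet has 1 library.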
